A study of Mus musculus with 52 samples.

Results

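Regions of open chromatin were compared between endothelial cells (ECs) of the cerebellum and of the posterior pituitary of wild-type mice, in 4 ATAC-seq libraries of the 52 samples of the series, with 2 replicates per tissue. The members were chosen by rule. In each library, peaks had to exceed 2 both in fold enrichment and in -log10 q, the mitochondrial genome was left out, and the 20000 peaks of highest -log10 q were used. Peaks that overlapped by at least 1 bp were joined, which gave 28218 regions. Of these, 2902 (10.3%) were present in both cerebellum libraries and neither posterior pituitary library and are called cerebellum-only peaks, and 2210 (7.83%) were present in both posterior pituitary libraries and neither cerebellum library and are called posterior-pituitary-only peaks. Another 13196 regions were present in all 4 libraries (shared peaks), and the remaining 9910 were found in other combinations of libraries.

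Both groups of mice were adult males of the genotype Tie2-GFP, in which the promoter of the endothelial receptor gene Tie2 (Tek) drives GFP. They carried no other allele named in the labels and were described as wild type, without the stabilized beta-catenin allele of other samples in the series. GFP-positive cells were sorted for each library. Each pituitary replicate was a pool of many mice, so that a replicate describes a pool and not an animal. The strain of the mice is not given in the sources used here, and nothing in them ties the replicate numbers of the tissues to each other.

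ECs of the cerebellum form the blood-brain barrier (BBB). They are sealed by tight junctions, carry nutrients across by transporters and take up little by vesicles. The posterior pituitary is a neuroendocrine lobe with fenestrated, permeable capillaries, through which its hormones reach the blood. In brain ECs, Wnt ligands bind Frizzled receptors and Lrp co-receptors and stabilize beta-catenin, which enters the nucleus and acts through the DNA-binding proteins of the TCF/LEF family. ATAC-seq uses a transposase, which cuts and tags accessible DNA, to mark open chromatin such as promoters and enhancers.

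The strongest peaks of each kind were ranked by the lower of the 2 fold enrichments in their own tissue, where fold enrichment sets the pileup at the summit against the background around it. To show what lay at their summits, windows of GRCm38 that reach 100 bp to either side of the summit (the mm10 assembly of the peak lists), plus strand, are printed for 3 of the 8 strongest of each kind. Capitals mark letters of 4 motif families, searched on both strands: TTCAAAG or ATCAAAG for TCF/LEF, ACAATGG or ACAATAG for SOX, TGTTTAC for FOX and TGACTCA for AP-1. The 3 windows of cerebellum-only peaks lay in an intron of Bche (butyrylcholinesterase), upstream of the Notch ligand gene Jag1, and between genes, nearest to Erv3 among protein-coding genes.
Bche, chr3:73673480-73673680: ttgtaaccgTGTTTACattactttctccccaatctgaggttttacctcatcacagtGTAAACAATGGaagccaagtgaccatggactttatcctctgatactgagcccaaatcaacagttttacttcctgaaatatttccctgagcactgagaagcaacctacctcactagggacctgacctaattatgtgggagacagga
Jag1, chr2:137204522-137204722: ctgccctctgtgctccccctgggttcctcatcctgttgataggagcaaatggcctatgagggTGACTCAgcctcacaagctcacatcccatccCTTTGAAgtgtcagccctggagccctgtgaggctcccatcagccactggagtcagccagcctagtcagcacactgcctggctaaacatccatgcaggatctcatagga
Erv3, chr2:131847583-131847783: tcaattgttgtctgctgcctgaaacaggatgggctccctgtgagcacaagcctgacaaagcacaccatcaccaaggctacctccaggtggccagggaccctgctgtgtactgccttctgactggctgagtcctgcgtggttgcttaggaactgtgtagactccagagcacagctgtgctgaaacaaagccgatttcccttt
The Bche window held 2 FOX matches and 1 SOX match, and the SOX match shared letters with 1 of the FOX matches. The Jag1 window held 1 TCF/LEF and 1 AP-1 match, and the Erv3 window held none of the 4.

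The 3 windows of posterior-pituitary-only peaks lay in an intron of Nrn1 (the neuronal growth protein neuritin), between genes nearest to the cadherin gene Cdh6, and in an intron of the kinase gene Prkd1.
Nrn1, chr13:36695955-36696155: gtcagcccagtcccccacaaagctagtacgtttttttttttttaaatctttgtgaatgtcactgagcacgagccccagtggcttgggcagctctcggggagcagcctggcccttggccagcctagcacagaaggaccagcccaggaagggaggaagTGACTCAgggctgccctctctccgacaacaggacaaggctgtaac
Cdh6, chr15:13244395-13244595: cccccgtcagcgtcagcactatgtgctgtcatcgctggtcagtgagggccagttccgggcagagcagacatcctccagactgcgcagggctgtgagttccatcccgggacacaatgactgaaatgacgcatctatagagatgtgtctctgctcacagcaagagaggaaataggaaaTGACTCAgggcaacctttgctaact
Prkd1, chr12:50544969-50545169: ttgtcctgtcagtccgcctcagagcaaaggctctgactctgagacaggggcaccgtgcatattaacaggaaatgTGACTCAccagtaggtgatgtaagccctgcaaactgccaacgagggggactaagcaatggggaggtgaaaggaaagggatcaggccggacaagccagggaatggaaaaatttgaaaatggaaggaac
Each of these 3 windows held 1 AP-1 match and none of the other 3 families. They are those of the next 3 peaks after the strongest. The window of the strongest, at the start site of Lama3, is not printed and held no AP-1 letters, and AP-1 letters were in 5 of the 8 strongest posterior-pituitary-only and 2 of the 8 strongest cerebellum-only windows.

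The 8 strongest cerebellum-only peaks had fold enrichments from 13.7 to 18.9 in both cerebellum libraries and no entry in either posterior pituitary list at any threshold. The intronic Bche peak reached 16.6 and 18.9 in replicates 1 and 2, and the peak at -88.0 kb from the nearest start site of Jag1 reached 15.7 and 16.7. The others lay near Erv3 (17.5 and 15.1), in introns of Rhobtb1 (14.9 and 16), Dmgdh (16.4 and 14.7), the Wnt target gene Tnfrsf19 (14.2 and 14.7) and the receptor phosphatase gene Ptprg (13.7 and 14.7), and at -174 kb from Mad2l1 (13.8 and 14.2). The values of the replicates lay close together. TCF/LEF letters were in 4 of the 8 windows, beside 23.8% of all cerebellum-only windows and 7.09% of all regions. The RNA of Bche, Rhobtb1 and Tnfrsf19 was called higher in cerebellum ECs by the test given below, beside 2.78% of all protein-coding genes tested. That of Jag1, Ptprg, Mad2l1 and Dmgdh was not called, and Erv3 was too low to be tested.

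Fold enrichment ran lower in the posterior pituitary libraries as a whole. Its median over all peaks used was 6.02 and 5.92 there, against 7.88 and 7.71 in cerebellum libraries. The 8 strongest posterior-pituitary-only peaks had fold enrichments from 9.81 to 12.2, a range that is therefore not set against that of the cerebellum. They lay at the start sites of Lama3 (a laminin chain; 11.3 and 12.2), Rasgrf2 (a Ras exchange factor; 11.2 and 10.0) and B4galt6 (a galactosyltransferase; 11.7 and 10.0), near Cdh6 (10.4 and 10.5), and in introns of Nrn1 (10.7 and 11.6), Prkd1 (11.3 and 10.2), Csgalnact1 (9.91 and 9.83) and P3h2 (9.81 and 9.93). AP-1 letters were present in 5 of these 8 windows and TCF/LEF letters in 0. The Lama3 peak was listed in both cerebellum libraries and the Prkd1 peak in 1 of them, below the first 20000, so that the first differed between tissues in rank and not in presence. All 8 were also present in both anterior pituitary libraries, against 1 of the 8 cerebellum-only peaks, that at Rhobtb1. Of all posterior-pituitary-only and cerebellum-only peaks, 58.6% and 10.7% were present there. Lama3 and Rasgrf2 RNA was called higher in posterior pituitary ECs, beside 2.5% of all protein-coding genes tested, and the other 6 genes were not called. The Lama3 call was lost without cerebellum replicate 2 (adjusted p = 0.0733) or posterior pituitary replicate 2 (0.0520).

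**Figure D1:**
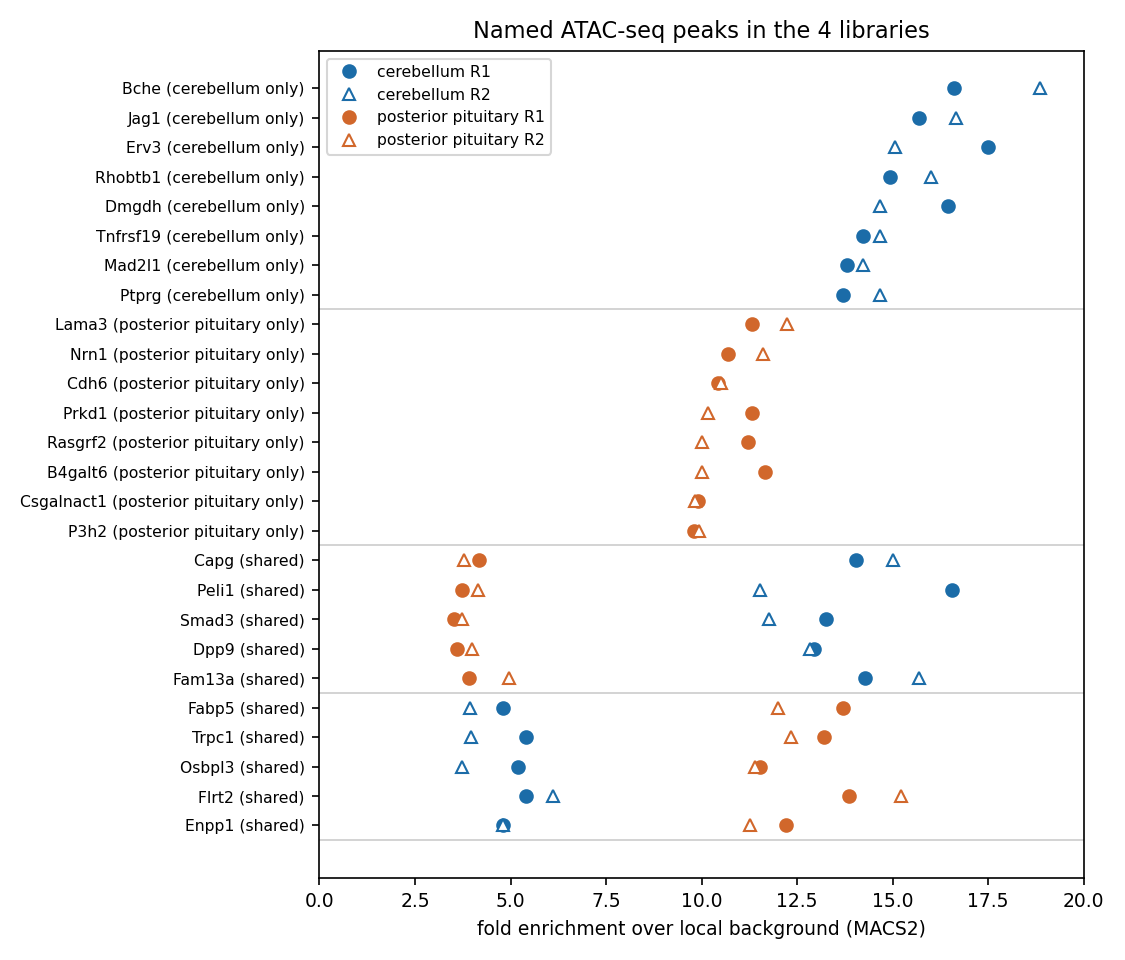
Fold enrichment (x axis, ratio to local background) of 26 peaks (y axis, by nearest gene) in the 4 libraries, with circles for replicate 1, triangles for replicate 2, blue for cerebellum and orange for posterior pituitary ECs. The tissue-only peaks have points of 1 tissue only, and the 10 shared peaks have points of both tissues that lie apart, as at Capg and Fabp5.

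The libraries differed in depth of peaks. Past the filter the cerebellum libraries held 26394 and 24020 peaks and the posterior pituitary libraries 21050 and 20634, so that the limit of 20000 removed 6394, 4020, 1050 and 634. The last peak kept had a -log10 q of 6.94, 5.78, 3.23 and 2.77, and the first peak left out had 6.94, 5.78, 3.22 and 2.76. This bears on the 2 kinds of peak unequally. Of the 2902 cerebellum-only peaks, 2759 (95.1%) overlapped no entry in the posterior pituitary lists at any threshold. Of the 2210 posterior-pituitary-only peaks, 1339 (60.6%) overlapped none in the cerebellum lists, and 829 overlapped a cerebellum peak that passed the filter but ranked below 20000. With every filtered peak used, 4433 peaks were cerebellum-only and 1576 posterior-pituitary-only. Read counts behind the peaks are not given in the lists, so that a missing peak cannot be told apart from one just under its threshold.

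Peak positions of replicates resembled each other more than libraries of different tissues. The share of the joint peak length covered by both libraries of a pair (the Jaccard index) was 0.707 for the cerebellum and 0.732 for the posterior pituitary replicates. It was 0.550 and 0.549 between cerebellum replicate 1 and the posterior pituitary libraries, and 0.606 and 0.603 for cerebellum replicate 2, which was thus closer to the other tissue. Taking replicate 1 alone for the cerebellum gave 5161 cerebellum-only peaks, and replicate 2 alone gave 4184. With replicate 1 or 2 alone for the posterior pituitary, posterior-pituitary-only peaks numbered 4074 and 4032. With 2 libraries per tissue, an exact permutation test of a single value could not go below p = 0.33, so presence is described without a test.

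The sorted cells carried the marks of ECs in both tissues. Over all peaks used, 52.1% and 54.7% in cerebellum and 57.9% and 57.7% in posterior pituitary libraries lay within 1 kb of a start site. The share of all genes with such a peak is not given here. Of 18 pan-endothelial genes, such as the receptor genes Tek and Tie1 and the junction gene Cdh5, 18, 17, 18 and 18 had a peak within 1 kb of a start site in cerebellum replicates 1 and 2 and posterior pituitary replicates 1 and 2. None of 10 microglia and 5 macrophage genes had one in any library. Of 9 mural cell genes 0, 0, 1 and 2 had one, but their summed RNA level in the GFP-positive cells was 728 and 598 TPM (abundance scaled to a fixed total per library) in cerebellum and 158 and 84.3 TPM in posterior pituitary libraries, mostly from Rgs5, and 4 of the 9 (Rgs5, Pdgfrb, Myh11, Notch3) were called higher in cerebellum, beside 2.78% of all protein-coding genes tested, Myh11 not without posterior pituitary replicate 2 (adjusted p = 0.0940). Of 12 pituitary endocrine genes 1 had a promoter peak in each library. Their summed RNA was 35.7 and 32.9 TPM in cerebellum and 3353 and 475 TPM in posterior pituitary libraries, nearly all from the hormone precursor gene Pomc, against 54132 and 56141 TPM in the GFP-negative cells of the posterior pituitary. Pomc (adjusted p = 0.00532) and Cga (0.0378) were called higher in posterior pituitary, Cga not without posterior pituitary replicate 1 (0.826). Erythroid RNA, mostly of Hbb-bs, stood at 51205 and 5423 TPM in cerebellum and 4386 and 1548 TPM in posterior pituitary libraries, and Hbb-bs was called higher in cerebellum (adjusted p = 0.0312), but not without cerebellum replicate 1 (0.258) or posterior pituitary replicate 2 (0.103). Of 9 neuron, 7 astrocyte, 8 oligodendrocyte and 5 pituicyte genes, 0 to 2 of each list had a promoter peak in any library. Their summed RNA was 38.0 and 39.2, 117 and 89.5, 49.2 and 37.2, and 0.423 and 0.209 TPM in cerebellum, and 31.9 and 15.8, 422 and 52.9, 26.5 and 9.89, and 3.85 and 1.91 TPM in posterior pituitary libraries. Of these lists Mbp, of myelin (32.1 and 23.7 against 1.95 and 0.557 TPM), was called higher in cerebellum, and Gja1 (78.9 and 78.0 against 413 and 51.8 TPM, with overlap) and Col25a1 (0.305 and 0.115 against 1.55 and 1.83 TPM) higher in posterior pituitary. The part of these cells and RNAs in the comparison was not tested.

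The 2 kinds of peak lay at different places in the genome. Among cerebellum-only peaks, 10.1% (293 of 2902; 95% Wilson interval 9.05 to 11.2%) had the summit within 1 kb of an annotated start site, against 27.0% (597 of 2210; 25.2 to 28.9%) of posterior-pituitary-only and 71.5% of shared peaks. The median distance of the summit from the nearest start site was 16.9 kb, 10.1 kb and 0.090 kb in the 3 classes. Introns held 48.5%, 42.4% and 24.6% of them, and the GC content of the summit windows averaged 51.3%, 57.7% and 64.0%. The median of the lower fold enrichment was 5.11, 3.92 and 7.18. These medians are not centred, and fold enrichment ran lower over all peaks of the posterior pituitary libraries. The Wilson intervals cover counting error only, since regions are not replicates of a condition. With the 10000 highest peaks per library the promoter shares became 19.7% and 53.0%, in the same order.

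TCF/LEF letters were more frequent in cerebellum-only peaks than in the other classes. They were found in the summit window of 691 of 2902 cerebellum-only peaks (23.8%; 95% Wilson interval 22.3 to 25.4%), in 71 of 2210 posterior-pituitary-only peaks (3.21%; 2.55 to 4.03%), in 3.18% of shared peaks and in 7.09% of all 28218 regions. Over all 20000 peaks of a library, which are not chosen by the comparison, the share was 7.88% and 7.13% in the cerebellum and 3.13% and 3.27% in the posterior pituitary libraries, so that the tissues did not overlap. Most of the 16 motif families searched did not overlap in this way either. Among them were ETS letters, at 26.5% and 26.4% in cerebellum and 25.7% and 25.7% in posterior pituitary libraries. Away from start sites (over 1 kb) the shares were 25.0%, 3.6% and 5.85%. All shares by GC content, here and below, are of these windows away from start sites. At 40 to 50% GC they were 30.4%, 5.36% and 9.97%, and at 50 to 60% GC 20.3%, 3.53% and 7.01%. Cerebellum-only windows had the highest share in both bands. At 30 to 40% GC, with only 19 posterior-pituitary-only windows, they were 37.8%, 21.1% and 5.71%. The share was larger in stronger peaks, from 17% among the 581 cerebellum-only peaks of lowest fold enrichment (2.06 to 4.11) to 34.3% among the 581 of highest (7.10 to 16.6).

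AP-1 letters, bound by dimers of Fos and Jun proteins, had the reverse pattern. They were found in 354 posterior-pituitary-only windows (16%; 14.5 to 17.6%), in 5.86% of cerebellum-only, 4.59% of shared and 6.81% of all windows. Per library the share was 4.57% and 5.64% in cerebellum and 6.81% and 6.83% in posterior pituitary ECs. Away from start sites it was 20.0%, 6.13% and 10.5% in posterior-pituitary-only, cerebellum-only and shared peaks. Of these distal windows, 21.2%, 7.26% and 13.1% held the letters at 40 to 50% GC. At 50 to 60% GC 23.6%, 5.66% and 12.2% did. With start sites included, the share was 10.2% among the 442 weakest and 21.9% among the 442 strongest posterior-pituitary-only peaks.

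SOX letters stood at 11.3% in cerebellum-only, 5.61% in posterior-pituitary-only and 3.55% in shared windows. FOX letters stood at 6.20%, 1.72% and 2.02%, the letters CAGCAGG taken for ZIC factors at 16.4%, 9.68% and 8.23%, and AGATAA for GATA factors at 10.2%, 6.15% and 2.74%. By GC content, the shares are again of windows away from start sites. In cerebellum-only, posterior-pituitary-only and shared windows of 40 to 50% GC, SOX letters stood at 14.0%, 11.2% and 12.0%. FOX letters stood at 8.47%, 3.32% and 5.30%, ZIC at 10.8%, 6.38% and 6.06% and GATA at 13.4%, 12.8% and 11.0%. At 50 to 60% GC these were 10.1%, 6.60% and 9.12% for SOX, 4.80%, 2.0% and 3.59% for FOX, 21.5%, 10.4% and 14.0% for ZIC and 8.02%, 6.71% and 5.13% for GATA. At 30 to 40% GC, with 19 posterior-pituitary-only windows, SOX stood at 18.5% in cerebellum-only and 21.1% in posterior-pituitary-only windows. ETS letters (CAGGAAG or CCGGAAG), for the factor family that endothelial genes use throughout the body, stood at 27.2%, 29.8% and 26.6%. Away from start sites they stood at 27.5%, 34.0% and 27.9%. In those distal windows with 50 to 60% GC they stood at 31.4%, 36.5% and 34.4%. In cerebellum-only peaks SOX letters were in 11.1% of windows with TCF/LEF letters and in 11.3% of all windows, and FOX letters in 6.22% and 6.20%. A match describes the letters of the window and is not evidence of binding.

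**Figure D2:**
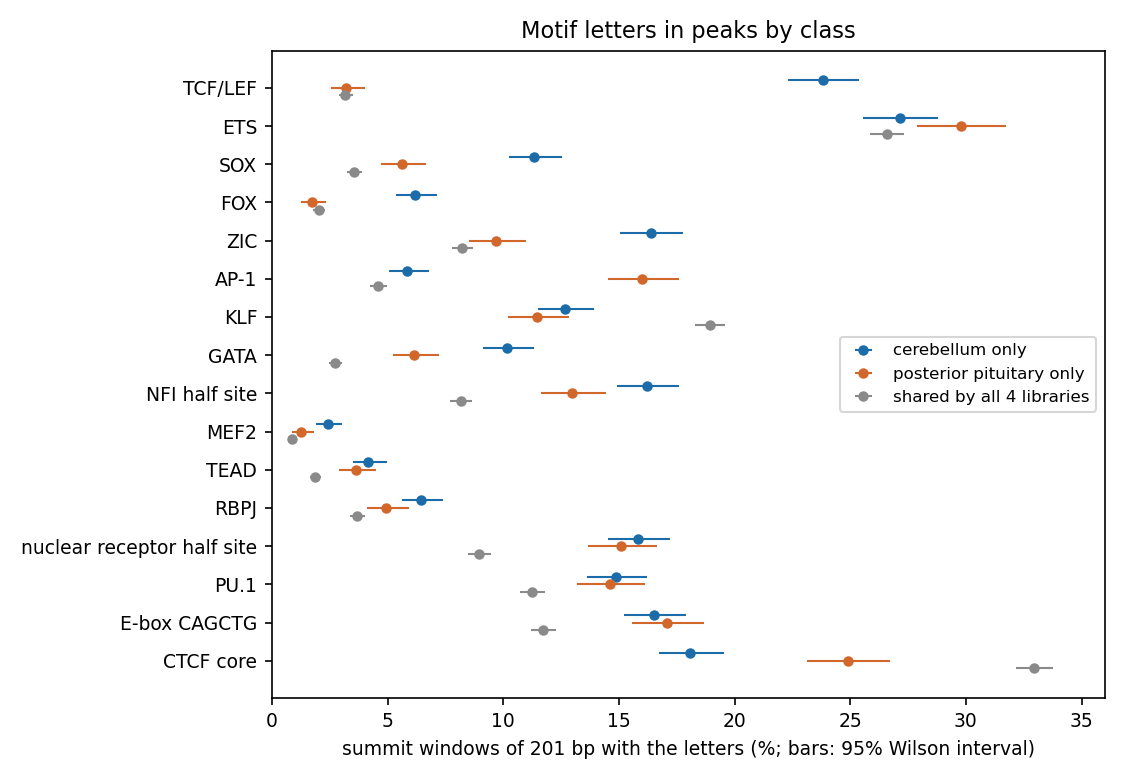
Share of summit windows (x axis, percent, with 95% Wilson intervals) that hold the letters of 16 motif families (y axis) in cerebellum-only, posterior-pituitary-only and shared peaks. TCF/LEF stands apart at 23.8% in cerebellum-only and AP-1 at 16% in posterior-pituitary-only peaks, while the ETS shares lie between 26.6 and 29.8%.

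Both sets of letters were concentrated at the summit of the peaks in which they were frequent. In cerebellum-only peaks TCF/LEF matches went from 0.455 and 0.648 per kb at the edges of a 500 bp window (225 to 250 bp from the summit on either side) to 1.78 per kb within 25 bp upstream of the summit. In posterior-pituitary-only peaks they were 0.290 per kb at both edges and 0.109 per kb within 25 bp upstream of the summit, and in shared peaks 0.242, 0.182 and 0.161 per kb. AP-1 matches in posterior-pituitary-only peaks went from 0.127 and 0.109 per kb at the edges to 1.36 per kb within 25 bp downstream of the summit, against 0.386 in cerebellum-only and 0.321 in shared peaks at that place. In these other classes too, AP-1 matches were sparser at the edges. There they stood at 0.138 per kb on both sides in cerebellum-only and at 0.097 and 0.149 per kb in shared peaks.

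**Figure D3:**
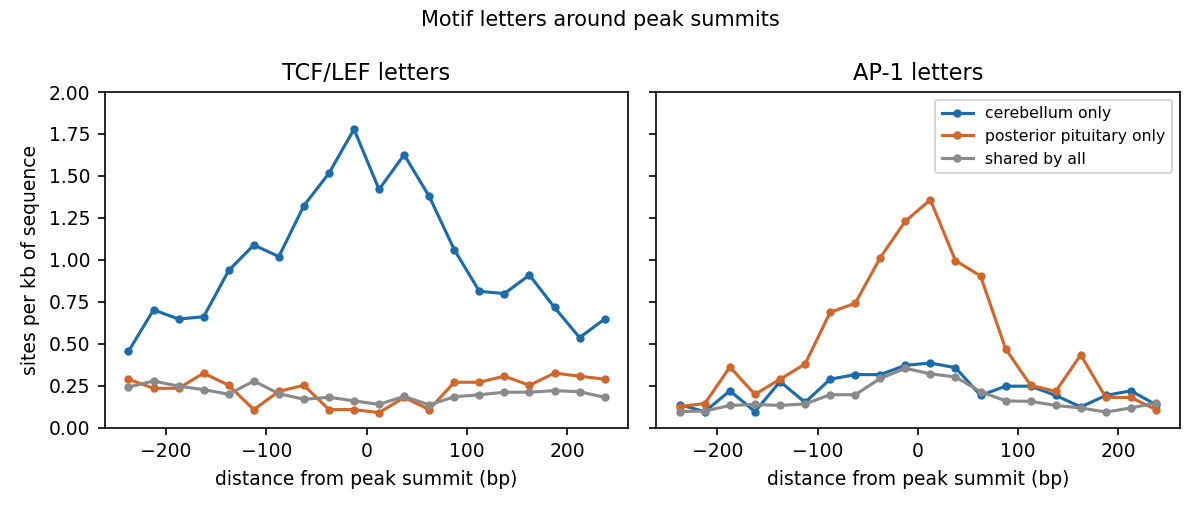
Density of TCF/LEF letters (left) and AP-1 letters (right) in sites per kb (y axis), in bins of 25 bp by distance from the summit (x axis), for the 3 classes of peak. The cerebellum-only line reaches 1.78 per kb at the summit in the left panel, and the posterior-pituitary-only line 1.36 per kb in the right panel.

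Examples of the TCF/LEF matches closest to the summit, with 17 bases on either side (GRCm38, plus strand, match in capitals), are given for cerebellum-only peaks at genes named below. They lay at Lef1, in peaks at -4.33 kb and 24.5 kb from the nearest start site, in an intron of Ocln at 3.95 kb, near Cldn5 at -56.0 kb, and in an intron of Tnfrsf19 at 25.3 kb.
Lef1, chr3:131106086-131106126: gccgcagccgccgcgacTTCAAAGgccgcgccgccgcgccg
Lef1, chr3:131137267-131137307: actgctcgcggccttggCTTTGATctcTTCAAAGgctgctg
Ocln, chr13:100548519-100548559: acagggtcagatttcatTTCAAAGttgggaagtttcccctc
Cldn5, chr16:18720797-18720837: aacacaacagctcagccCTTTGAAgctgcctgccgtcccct
Tnfrsf19, chr14:61012608-61012648: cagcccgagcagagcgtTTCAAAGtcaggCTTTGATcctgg
The second Lef1 window and the Tnfrsf19 window each held 2 matches. AP-1 matches of posterior-pituitary-only peaks are shown for Col15a1, at the start site, and for Cemip2, at -40.7 kb and 36.3 kb from the nearest start site.
Col15a1, chr4:47208238-47208278: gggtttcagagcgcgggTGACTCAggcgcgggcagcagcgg
Cemip2, chr19:21737742-21737782: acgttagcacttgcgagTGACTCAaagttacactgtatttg
Cemip2, chr19:21814650-21814690: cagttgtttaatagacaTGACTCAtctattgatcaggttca

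RNA of the factors that bind these letters was measured in separate libraries of GFP-positive cells. Lef1 stood at 156 and 120 TPM in cerebellum and 0.258 and 6.04 TPM in posterior pituitary ECs, a difference of 6.76 (SE 1.37) on the log2 scale with an edgeR adjusted p of 0.0118, a call that was lost with the 6 WT libraries alone (0.0755). Tcf7 stood at 26.2 and 23.9 against 0.231 and 0 TPM (log2 difference 8.96, SE 1.18, adjusted p = 0.000543). Tcf7l1 was at 3.71 and 4.80 against 21.6 and 15.7 TPM and Tcf7l2 at 5.21 and 7.12 against 6.13 and 23.0 TPM, and neither was called (adjusted p = 0.0711 and 0.901). Of the FOX genes listed, Foxf2 (40.9 and 37.2 against 6.90 and 7.51 TPM), Foxq1 (29.2 and 22.1 against 0 and 0.0711 TPM) and Foxc1 (21.3 and 26.2 against 3.54 and 2.72 TPM) were called higher in cerebellum, and Foxf1 and Foxl2 were not called. Sox17, Sox7 and Sox18 and the ETS factors Ets1, Ets2, Erg and Fli1 were not called. The AP-1 genes, named after their letters had been counted, varied widely between replicates. Fos stood at 309 and 12.2 TPM in cerebellum and 610 and 238 TPM in posterior pituitary ECs and Jun at 232 and 22.3 against 456 and 164 TPM, and none of 9 such genes was called. Without cerebellum replicate 1, Fosb was called higher in posterior pituitary ECs (log2 difference -3.24, adjusted p = 0.000744).

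For RNA, edgeR's quasi-likelihood test over 17915 genes in 12 libraries of GFP-positive cells called 412 genes higher in cerebellum (2.3%) and 376 higher in posterior pituitary ECs (2.1%), with a difference of 2-fold or more and an adjusted p below 0.05. These libraries played no part in choosing the peaks. Among the 14590 protein-coding genes tested the shares were 2.78% and 2.5%. The counts varied with the fit, with 194 and 150 genes from the 4 libraries alone, 924 and 817 with DESeq2, and 833 and 494 without posterior pituitary replicate 1.

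Genes with more tissue-only peaks were called more often in the direction of their peaks. Each peak was assigned to the protein-coding gene with the nearest start site. Of genes with no cerebellum-only peak, 1.28% (164 of 12860) were called higher in cerebellum. The share was 9.52% (114 of 1197) with 1 peak, 18.1% (60 of 331) with 2, 26.7% (35 of 131) with 3 and 45.1% (32 of 71) with 4 or more, and the median log2 difference went from 0.00 to 0.19, 0.42, 0.92 and 1.78. Genes called in the opposite direction made up 2.22%, 4.18%, 6.04%, 4.58% and 4.23% of these classes. For posterior-pituitary-only peaks the share called higher in posterior pituitary was 1.40%, 9.51%, 16.5%, 38.3% (18 of 47) and 46.4% (13 of 28), and the median log2 difference 0.02, -0.33, -0.76, -1.80 and -1.61. With genes at 0 counts in one tissue set to a bound from 3 counts over the group, the largest move among these medians was from -0.33 to -0.41.

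Distance and letters were followed in the same way. Of 405 protein-coding genes called higher in cerebellum, 292 (72.1%) had a cerebellum-only peak within 100 kb of the gene body, against 32.9% of all tested, and of 365 called higher in posterior pituitary, 230 (63.0%) had a posterior-pituitary-only peak there, against 28.8%. Of genes nearest to a cerebellum-only peak with TCF/LEF letters, 19.6% (106 of 540) were called higher in cerebellum, and of those nearest to such peaks without the letters only, 11.3% (135 of 1190). For AP-1 letters and posterior-pituitary-only peaks these shares were 14.9% (44 of 295) and 11.5% (138 of 1198). Genes with a cerebellum-only peak within 1 kb of a start site were called in 22.5% of cases (58 of 258), and with a posterior-pituitary-only peak in 14.3% (74 of 517). These shares are described without a test, since neighbouring genes share peaks.

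**Figure D4:**
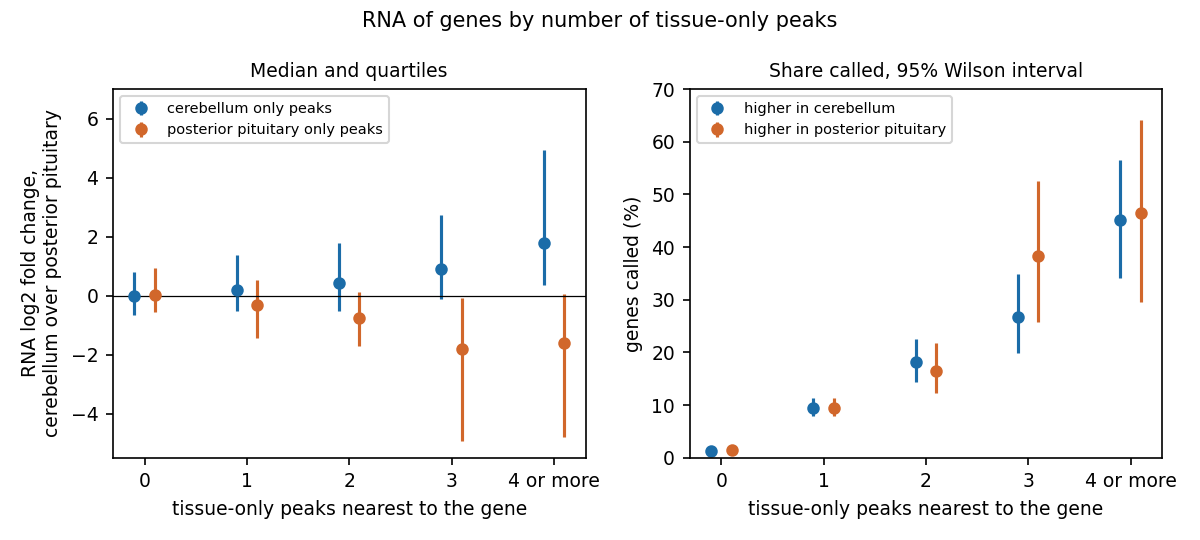
RNA of protein-coding genes by the number of tissue-only peaks nearest to them (x axis). Left, median and quartiles of the log2 fold change of cerebellum over posterior pituitary ECs; right, share of genes called in the direction of the peaks in percent with 95% Wilson intervals, which reaches 45.1% and 46.4% at 4 or more peaks.

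Genes that form the barrier carried most of their tissue-only peaks in cerebellum ECs. Each of 24 transporter genes had at least 1 cerebellum-only peak within 100 kb (70 peaks in all) and 4 had a posterior-pituitary-only peak (8 peaks), beside 32.9% and 28.8% of all genes tested. Their RNA was called higher in cerebellum for 22 and higher in posterior pituitary for 0 of the 24, beside 2.78% and 2.5% of all genes tested. A start-site peak was present for 21 and 21 of them in the cerebellum and 13 and 12 in the posterior pituitary libraries. The share of all genes with such a peak is not given here. Of all peaks used, 52.1% and 54.7% lay at start sites in cerebellum and 57.9% and 57.7% in posterior pituitary libraries. Slc2a1, the glucose transporter, had 10 cerebellum-only peaks, and Mfsd2a (lipid transport), Slc19a3 (thiamine) and Slc38a3 (glutamine) had 5 each. Slc38a3 also had 5 posterior-pituitary-only peaks within 100 kb, in a gene-dense region, and stood at 216 and 200 TPM in cerebellum and 0.848 and 1.2 TPM in posterior pituitary ECs. Slc19a3 stood at 22.6 and 28.0 TPM and had 0 counts in both posterior pituitary libraries. The exceptions among the 24 were Abcg2, the drug efflux pump, at 349 and 248 against 347 and 275 TPM, and Slc52a3, the riboflavin transporter, at 10.1 and 12.5 against 0.691 and 5.68 TPM. The TPM of Slco2b1 and Slc3a2 overlapped between tissues although their counts were called. Calls were lost without 1 library for Slc3a2 (adjusted p = 0.0538 without cerebellum replicate 2 and 0.0978 without posterior pituitary replicate 2) and Slc6a6 (0.115 without cerebellum replicate 1 and 0.118 without posterior pituitary replicate 2).

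Of 11 tight junction genes, 9 had cerebellum-only peaks (31 peaks) and 5 posterior-pituitary-only peaks (6 peaks), which is 81.8% and 45.5% of them beside 32.9% and 28.8% of all genes tested. Their RNA was called higher in cerebellum for 7 and in posterior pituitary for 0, beside 2.78% and 2.5%. Ocln (occludin) had 7 cerebellum-only peaks and 0 of the other kind within 100 kb. The peak at its start site had fold enrichments of 4.85 and 4.67, that at -13 kb 8.26 and 6.53, and that at -25.2 kb 10.5 and 8.55, while no peak at these places was among the 20000 of a posterior pituitary library, although the start-site peak was listed in 1 of them at lower rank. Its RNA stood at 206 and 223 against 2.54 and 0.102 TPM (log2 difference 7.19, SE 0.90, adjusted p = 0.000404). Marveld2 (tricellulin), which neighbours Ocln, had 6, Tjp1 (ZO-1) 5 and Cldn5 (claudin-5) 4. Cldn5 stood at 453 and 511 against 37.2 and 13.2 TPM. The call for Marveld2 was lost without posterior pituitary replicate 2 (adjusted p = 0.103). Esam, Jam2, F11r and Cldn12 were not called, and Esam stood at 1478 and 1632 against 1746 and 695 TPM.

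Of 20 Wnt pathway genes, 16 had cerebellum-only peaks (48) and 7 posterior-pituitary-only peaks (9), and 11 were called higher in cerebellum and 3 in posterior pituitary. These shares of 80.0% and 35.0% stood beside 32.9% and 28.8% of all genes tested, and the RNA calls beside 2.78% and 2.5%. Among targets and feedback genes, Sp5 (0.138 and 0.187 against 0 and 0.0253 TPM) and Rnf43 (0 and 0 against 0.356 and 0 TPM) were not called. Lef1 had 9 cerebellum-only peaks within 100 kb, among them 1 at -0.155 kb from its nearest start (4.67 and 3.36), 1 at -24.3 kb (12.0 and 9.10) and 1 at -4.33 kb (8.0 and 7.76). Tnfrsf19 had 4 cerebellum-only peaks and no shared peak within 100 kb, 2 of them at start sites (10.2 and 11.9, and 7.30 and 7.23), and stood at 29.3 and 44.4 TPM with 0 counts in both posterior pituitary libraries. Notum, a secreted Wnt inhibitor, had 5 cerebellum-only peaks and 1 of the other kind and stood at 70.9 and 35.1 TPM with 0 counts in posterior pituitary ECs. Nkd1 had 4, and 3 of these held TCF/LEF letters. Znrf3, which removes Frizzled receptors, had 5 but was not called (10.7 and 2.57 against 10.5 and 0 TPM). Receptor and co-factor genes were called in both directions. Fzd6, Lrp6, Reck and Adgra2 (32.2 and 21.7 against 6.52 and 2.83 TPM) were called higher in cerebellum, and Fzd4, Tspan12 and Lrp5, of the receptor complex for norrin, higher in posterior pituitary. Fzd4 stood at 22.1 and 20.1 against 91.4 and 95.2 TPM (log2 difference -1.92, SE 0.31, adjusted p = 0.0025) and had 1 cerebellum-only peak within 100 kb and a posterior-pituitary-only peak 7.18 kb from its start site (4.09 and 5.12). Its co-factor Tspan12 stood at 79.3 and 107 against 459 and 218 TPM with 2 posterior-pituitary-only peaks and 1 cerebellum-only peak, and Lrp5 at 17.8 and 12.8 against 64.2 and 79.8 TPM with none of either kind. With the 4 libraries alone, the calls of Fzd4 (adjusted p = 0.0632), Tspan12 (0.141) and Lrp5 (0.209) were lost. The Tspan12 call was also lost without cerebellum replicate 1 (adjusted p = 0.127), and that of Lrp5 without cerebellum replicate 1 (0.166), cerebellum replicate 2 (0.0764) or posterior pituitary replicate 2 (0.389). On the cerebellum side the calls lost without 1 library were those of Fzd6 (0.0675 without posterior pituitary replicate 1), Lrp6 (0.0878 to 0.145 without 1 of 3 libraries) and Reck (0.0524 to 0.162 without any 1 library).

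Transcription factor genes linked to the barrier had 15 cerebellum-only peaks at 8 of 9 members and 3 posterior-pituitary-only peaks at 3, or 88.9% and 33.3% of the genes beside 32.9% and 28.8% of all genes tested. In RNA 5 were called higher in cerebellum and 0 in posterior pituitary, beside 2.78% and 2.5%. Foxq1 was nearest to 4 cerebellum-only peaks between -247 and -97.1 kb, the strongest at 12.2 and 11.9. Foxl2 had 3 within 100 kb and was not called, and Foxc1 and Ppard had 2 each and were called. The call for Ppard was lost without cerebellum replicate 2 (adjusted p = 0.0514) or posterior pituitary replicate 2 (0.0516).

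Genes of fenestrated and permeable capillaries had tissue-only peaks of both kinds. Of 20 members, 12 had posterior-pituitary-only peaks (22 peaks) and 12 cerebellum-only peaks (19 peaks), 9 of them both, beside 28.8% and 32.9% of all genes. Their RNA was called higher in posterior pituitary for 12 and in cerebellum for 0, beside 2.5% and 2.78%. Plvap, whose protein forms the diaphragms of fenestrae, stood at 0 and 10.7 TPM in cerebellum and 1159.7 and 1112 TPM in posterior pituitary ECs (log2 difference -7.37, SE 1.84, adjusted p = 0.0400), a call that was lost with the 6 WT libraries (0.0998) or the 4 libraries alone (0.223). It had a posterior-pituitary-only peak at its start site (3.92 and 4.38), which was also present in both anterior pituitary libraries. Plpp3 (lipid phosphate phosphatase 3) had 5 posterior-pituitary-only peaks and 0 cerebellum-only peaks, in introns and downstream, with fold enrichments from 2.96 to 7.19, and stood at 8.97 and 14.6 against 721 and 383 TPM. Plpp1, of the same family, had 3 upstream (5.15 and 6.15, 3.46 and 2.72, and 2.86 and 3.18) and 1 cerebellum-only peak, and stood at 14.5 and 22.9 against 2864 and 841 TPM. Flt1, a VEGF receptor gene, had 5 cerebellum-only and 3 posterior-pituitary-only peaks and was not called. Fabp4, Cd36, Aqp1, Igfbp5 and Igfbp3 were called higher in posterior pituitary with no tissue-only peak within 100 kb, and Igfbp3 was the nearest gene to 2 cerebellum-only peaks farther away. With the 4 libraries alone, calls were also lost for Gpihbp1 (edgeR adjusted p = 0.0684), Fabp4 (0.0839), Aqp1 (0.0572), Nrp1 (0.0869), Kdr (0.307) and Cavin2 (0.224). With the 6 WT libraries the calls of Kdr (0.201) and Cavin2 (0.120) were lost as well. Those of Kdr and Cavin2 were the calls lost without 1 library, for Kdr without cerebellum replicate 1 (adjusted p = 0.191) or posterior pituitary replicate 2 (0.0766), and for Cavin2 without either cerebellum replicate (0.0772 and 0.212) or posterior pituitary replicate 2 (0.102).

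Of the 18 pan-endothelial genes, 10 (55.6%) had cerebellum-only peaks (25 peaks) and 7 (38.9%) posterior-pituitary-only peaks (10 peaks), beside 32.9% and 28.8% of all genes tested, and 108 shared peaks lay within 100 kb of them. Pecam1, Cdh5, Tie1 and Emcn were called higher in posterior pituitary and 0 of the 18 in cerebellum, beside 2.5% and 2.78% of all genes. Of these Pecam1 and Cdh5 lost the call without cerebellum replicate 1 (adjusted p = 0.145 and 0.249), and Cdh5 also without posterior pituitary replicate 2 (0.0857). With the 4 libraries alone, Pecam1 (0.263), Cdh5 (0.309), Tie1 (0.101) and Emcn (0.0603) all lost it. Fli1, an ETS factor, had 6 cerebellum-only peaks within 100 kb, of which that at -20.0 kb reached 9.07 and 9.49 and that at -13.8 kb 9.60 and 8.19, yet its RNA stood at 28.6 and 46.3 against 154 and 35.4 TPM and was not called. Ets1 had 5 and 2 peaks of the 2 kinds and was not called either.

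Among 14 regional transcription factor genes, 7 (50.0%) had cerebellum-only peaks (13 peaks) and 6 (42.9%) posterior-pituitary-only peaks (11 peaks), beside 32.9% and 28.8% of all genes tested. Of the 13 tested for RNA 2 were called higher in cerebellum and 1 in posterior pituitary, beside 2.78% and 2.5%. Meis2, a homeobox gene, stood at 0 and 0.0058 against 124 and 141 TPM. It had a posterior-pituitary-only peak at its start site (4.72 and 4.72) beside a shared peak, and 3 such peaks within 100 kb. Mecom, a zinc-finger factor of arterial ECs, had 5 cerebellum-only and 2 posterior-pituitary-only peaks and was called higher in cerebellum (59.2 and 37.5 against 14.9 and 23.9 TPM). Nr2f1 and Meox1 had 2 posterior-pituitary-only peaks each, Meox1 also 3 cerebellum-only peaks, and neither was called. Tbx1 was called higher in cerebellum (7.40 and 3.62 TPM, and 0 counts in posterior pituitary ECs), with no tissue-only peak within 100 kb, and lost the call without posterior pituitary replicate 1 (adjusted p = 0.0702) or 2 (0.0800).

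**Figure D5:**
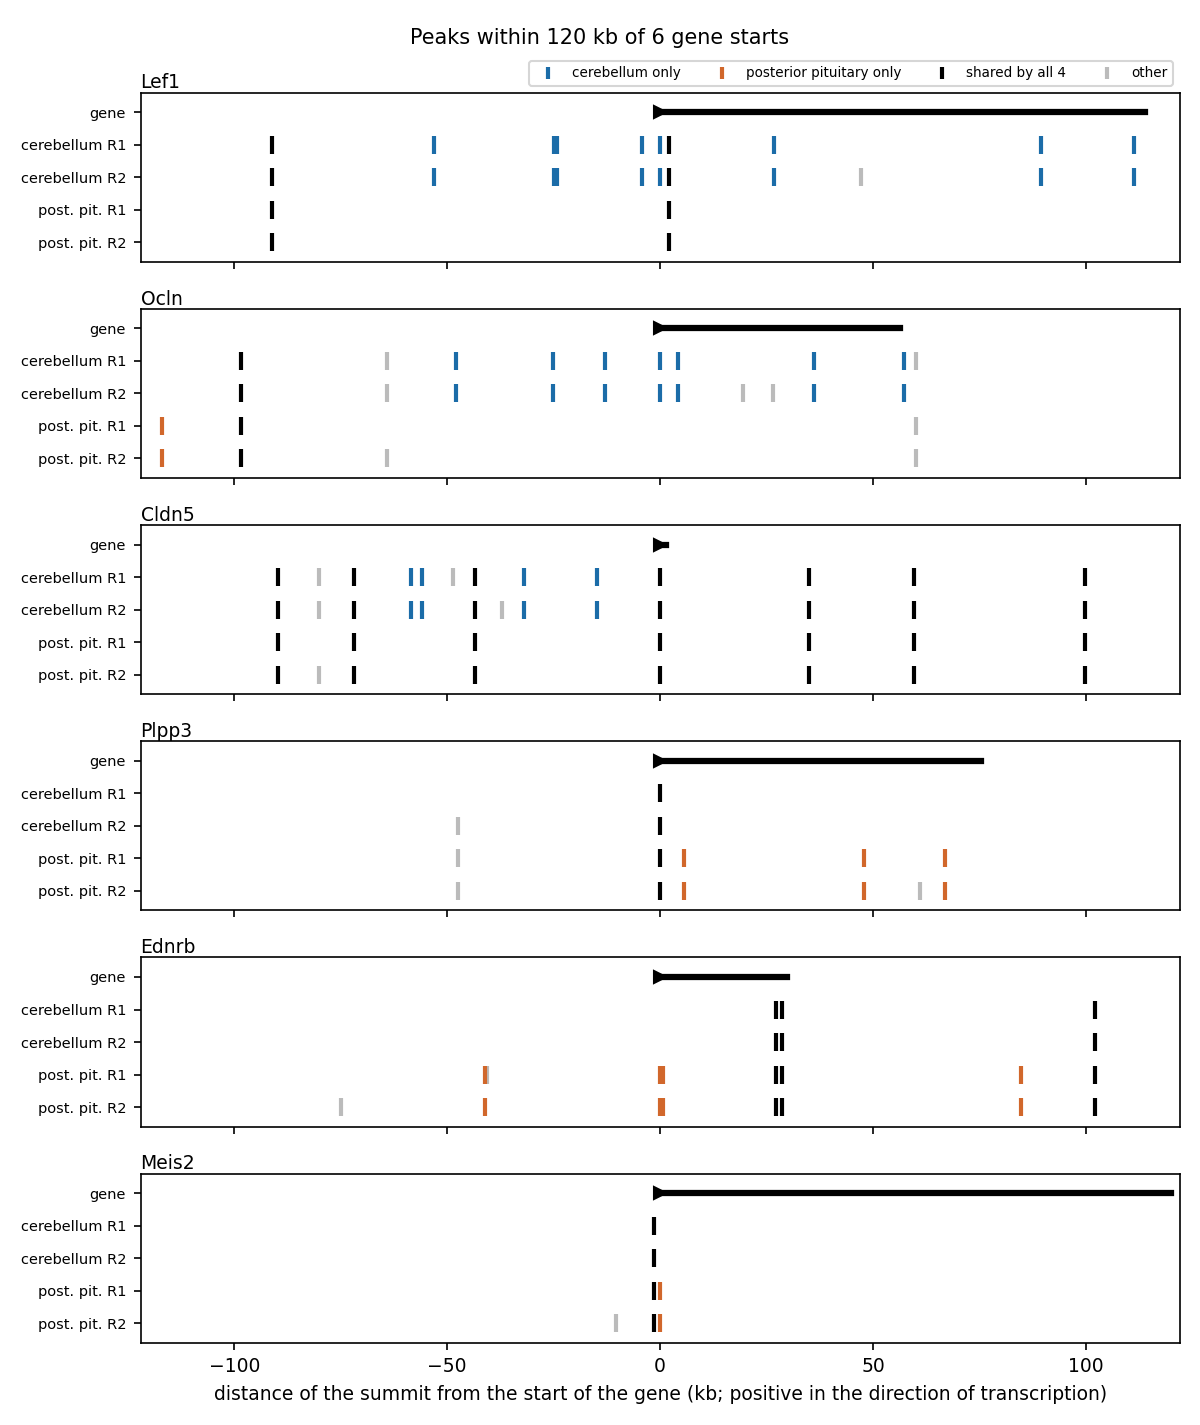
Positions of peak summits (ticks) of the 4 libraries (rows) within 120 kb of the starts of 6 genes, by distance from the start in kb along the direction of transcription (x axis), with the gene as a black bar from its start. Blue ticks of both cerebellum rows lie at Lef1, Ocln and Cldn5, and orange ticks of both posterior pituitary rows lie at Plpp3, Ednrb and Meis2, with shared peaks in black and peaks of other combinations in grey.

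Of 16 genes nearest to 6 or more cerebellum-only peaks, 9 were called higher in cerebellum by edgeR and 0 in posterior pituitary, beside 2.78% and 2.5% of all protein-coding genes tested. The 10 named by the rule, which broke ties at 6 by the highest fold enrichment, were Ptprg, Myo10, Tcf4 and Shld1 with 8 each, Cdkn2b and Slc2a1 with 7, and Nebl, Stard13, Atp10a and Zfp366 with 6. Among them Slc2a1, Nebl (nebulette), Stard13 and Atp10a (a lipid flippase) were called higher in cerebellum, as were Lef1, Mecom and Ablim1, which also had 6. Myo10, an unconventional myosin of filopodia, had fold enrichments of up to 15.3 and 13.3 and TCF/LEF letters in 5 of its 8 peaks, with RNA at 252 and 163 against 192 and 222 TPM. Tcf4, an E-box factor that despite its symbol is not a TCF/LEF member, had 8 such peaks with RNA at 165 and 167 against 326 and 279 TPM. Ptprg stood at 451 and 383 against 214 and 255 TPM (log2 difference 0.89, SE 0.25, adjusted p = 0.0691).

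Of 12 genes nearest to 5 or more posterior-pituitary-only peaks, 7 were called higher in posterior pituitary and 1 in cerebellum, beside 2.5% and 2.78% of all protein-coding genes tested. The 10 named, with ties broken in the same way, were Cemip2, a cell-surface protein gene of hyaluronan metabolism, with 8, and Zfp462, Fgf1, Fez2, Ednrb, Ablim1, Sox4, Maml3, Gja1 and Plpp3 with 5 each. Cemip2, Zfp462, Fez2, Ednrb, Gja1 and Plpp3 were called higher in posterior pituitary, Ablim1 was called higher in cerebellum, and Fgf1, Sox4 and Maml3 were not called. Exoc3l2, which also had 5, was called higher in posterior pituitary. The 8 peaks of Cemip2 had fold enrichments from 3.03 to 7.56 and 3 held AP-1 letters, with RNA at 4.07 and 3.08 against 13 and 14.9 TPM. Ednrb, the endothelin B receptor, stood at 3.30 and 1.54 against 363 and 156 TPM (log2 difference -6.21, SE 0.76, adjusted p = 0.000360), with 2 peaks at its start site (5.65 and 3.45, and 4.93 and 4.56). Ablim1, an actin-binding protein gene, was nearest to 6 cerebellum-only and 5 posterior-pituitary-only peaks. It was 1 of 323 tested genes nearest to both kinds, of which 20 (6.19%) were called higher in cerebellum and 48 (14.9%) in posterior pituitary, beside the same shares of all genes.

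Genes called by edgeR, nearest to at least 2 peaks of the same direction and at 10 TPM or more in both libraries of the higher tissue numbered 115 for cerebellum and 57 for posterior pituitary. Among the 10 with the largest fitted difference in cerebellum were Tnfrsf19, Ccl21a (a chemokine), Flvcr2 (a choline transporter), Slc19a3, Degs2 (a sphingolipid enzyme), Srarp, Slc35f2, Pllp (plasmolipin) and Slco1c1 (a thyroid hormone carrier). The first 6 of these had 0 counts in both posterior pituitary libraries, so that their fold is a lower bound. Against 3 counts over the group, Tnfrsf19 was at least 11.82 higher on the log2 scale, Ccl21a at least 11.51, and Srarp, the lowest, at least 9.72. Ccl21a stood at 205 and 220 TPM with 2 cerebellum-only peaks in introns of annotated genes (7.59 and 5.46, and 7.19 and 4.80), in a locus with near-identical copies of the gene, so that its reads and peaks could be divided among copies. Slco1c1 stood at 1679.9 and 1345 against 2.51 and 1.72 TPM with 3 peaks.

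In posterior pituitary the 10 were Meis2, Ntf3 (neurotrophin-3), Exoc3l2, Col13a1 and Col15a1 (collagens), Ptgs1 (cyclooxygenase-1), Ednrb, Plpp1, Piezo2 (a mechanosensitive channel) and Ramp3 (a co-receptor for adrenomedullin). Exoc3l2 stood at 0.664 and 0.779 against 445 and 222 TPM and was nearest to 5 posterior-pituitary-only peaks, with fold enrichments from 2.97 to 6.38. Col15a1 stood at 0.0365 and 2.05 against 266 and 440 TPM and had a posterior-pituitary-only peak with AP-1 letters at its start site (5.78 and 5.23). Ptgs1 stood at 0.649 and 0.890 against 188 and 85.0 TPM, with a peak at its start site (4.85 and 4.43).

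Peaks present in all 4 libraries also differed in size. On the log2 fold enrichment, centred on the median of each library, limma called 91 of 13196 shared peaks higher in cerebellum (0.69%) and 88 higher in posterior pituitary (0.667%), by the same thresholds. The median fold enrichment of shared peaks was 9.78 and 10.1 in cerebellum and 8.04 and 7.95 in posterior pituitary libraries, a shift that the centring removed. Without centring the counts became 345 and 18, with stricter thresholds 32 and 65, without cerebellum replicate 1 93 and 168, and without cerebellum replicate 2 174 and 167. Higher in cerebellum by the most were peaks near Capg (14.0 and 15.0 against 4.17 and 3.77; log2 difference 1.56, SE 0.19, adjusted p = 0.00117), Peli1, Smad3, Dpp9 and Fam13a. Higher in posterior pituitary by the most were peaks at the start sites of Fabp5, a fatty acid binding protein gene (4.80 and 3.95 against 13.7 and 12.0; log2 difference -1.88, SE 0.20, adjusted p = 0.000881), Trpc1, Osbpl3 and Enpp1, and 1 peak over 1 Mb from Flrt2. Of the 91, 13.2% had the summit within 1 kb of a start site and 16.5% (15) held TCF/LEF letters, and of the 88, 53.4% and 2.27% (2), beside 71.5% and 3.18% of all shared peaks. AP-1 letters were in 5.49% (5) and 14.8% (13) of these peaks and in 4.59% of all shared peaks. Shared peaks away from start sites held TCF/LEF letters in 5.85% and AP-1 letters in 10.5% of windows. The fold enrichment tested was also a filter of the rule, so these calls are not separate evidence on the letters.

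Libraries of other ECs, which the rule did not use, held the 2 kinds of peak in different shares. In both WT anterior pituitary libraries, limited to 20000 peaks in the same way, 10.7% (311) of cerebellum-only and 58.6% (1295) of posterior-pituitary-only peaks were present, beside 93.0% of shared peaks. The anterior pituitary is a gland with permeable vessels outside the brain. The mice with stabilized beta-catenin carried Tie2-GFP, the endothelial Pdgfb-CreER and a Ctnnb1 allele that Cre recombination stabilizes, and had received 4-hydroxytamoxifen. The study describes this recombination as mosaic in stained tissues, so their libraries may hold unrecombined ECs too. In ECs with stabilized beta-catenin, 82.4% of cerebellum-only peaks were present in both cerebellum libraries, 20.9% in both anterior and 27.6% in both posterior pituitary libraries, and for posterior-pituitary-only peaks these shares were 7.19%, 59.2% and 48.7%. With every filtered peak used, 39.4% of cerebellum-only and 84.8% of posterior-pituitary-only peaks were present in both libraries of the WT anterior pituitary, and 59.9% and 80.2% in both of the stabilized posterior pituitary. Of cerebellum-only peaks present in both stabilized posterior pituitary libraries, 27.7% (222) held TCF/LEF letters, and of those present in neither 21.7%. For the stabilized anterior pituitary these shares were 23.1% and 23.7%, for the WT anterior pituitary 14.5% and 26.6%, and for the stabilized cerebellum 25.9% and 13.6%. The differences were not tested. All 4 Tnfrsf19 peaks and 4 of the 6 peaks nearest to Lef1 were present in both stabilized posterior pituitary libraries.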

How the data were processed

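ATAC-seq libraries of GFP-positive cells from WT cerebellum and posterior pituitary were compared, with 2 replicates each. The authors aligned reads to mm10 with Bowtie2 2.3.2, removed duplicates with Picard, and ran MACS2 2.1.1.20160309 on every library by itself. The deposited peak lists give fold enrichment, a ratio to the local background. They also give -log10 q as the authors' caller wrote it. Read depth is not in the lists, so the precision of a peak is not known. For RNA the deposited Salmon 0.10.2 files give estimated counts and TPM for each transcript, both made by the authors. The 4 RNA libraries compared held 33458597, 28116011, 28788137 and 17260078 estimated reads.

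Entries with several summits were merged into 1 peak. Regions were joined over the 4 libraries, assigned to the nearest protein-coding start site of GENCODE M21, and searched for motif letters within 100 bp of the summit. A peak counted as promoter within 1 kb of a start site of a protein-coding or long non-coding transcript. Estimated counts were summed to genes, rounded and fitted with edgeR 4.0.16 (quasi-likelihood, TMM) over 12 GFP-positive libraries, with Benjamini-Hochberg adjustment. Fold enrichment of shared peaks was fitted on the log2 scale with limma 3.58.1. DESeq2 1.42.0 was an alternative. Python 3.11.15 and R 4.3.3 were used, and tests across genes or peaks were checked on simulated data, with results that are not given here. The study's methods describe the replicates as independent biological ones, those of pituitary being pools of many mice, and p-values measure the spread between these libraries. Of the 12 RNA libraries 1, of stabilized anterior pituitary ECs by its title, has a tissue tag of posterior pituitary. It was grouped by the title and enters only the shared estimate of spread, and the fit of the 6 WT libraries leaves it out.

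Named genes were, per list, up to 4 members per direction with the most tissue-only peaks within 100 kb; per direction, the 10 genes nearest to the most tissue-only peaks, the genes at the 8 strongest tissue-only peaks, the 5 shared peaks of largest called difference, and the 10 called genes of largest RNA difference with at least 2 such peaks and 10 TPM in both replicates; and the factors of the motif families. Other list members, AP-1 genes and AP-1 sequences were chosen after their values were seen. Members and lists were chosen with earlier results of these data known. Other alternatives were the limit, thresholds, ranking, overlap, window and distance, and leaving out each replicate. Results for some named genes are not reported here.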

Additional observations from a re-analysis of the deposited data

How the results depend on the processing

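With every filtered peak there were 4433 cerebellum-only peaks, and with 10000 peaks per library 963 cerebellum-only and 951 posterior-pituitary-only peaks. Posterior-pituitary-only peaks numbered 1084 with fold enrichment over 4 and -log10 q over 5, and 1339 when absent from every listed cerebellum peak. Leaving out 1 library gave 3292 to 5161 and 2619 to 4074. Removing a library makes the rule easier to meet. TCF/LEF letters were in 21.9% (every filtered peak), 21.9% (10000 peaks), 21.3% (stricter thresholds), 14.2% (50 bp on either side), 39.9% (whole peak) and 13.8% (TTCAAAG alone) of cerebellum-only peaks, and in 20.1 to 21.9% without 1 library. They were in 2.1% (10000 peaks), 1.13% (50 bp on either side), 8.05% (whole peak) and 1.86% (TTCAAAG alone) of posterior-pituitary-only peaks, and in 3.02 to 3.47% without 1 library. Promoter shares of cerebellum-only peaks were 19.7% (10000 peaks), 14.0% (stricter thresholds), 8.66% (ranked by fold), 7.17% (500 bp), 23.3% (5000 bp) and 9.42 to 12.2% (without 1 library). Those of posterior-pituitary-only peaks were 25.2% (every filtered peak), 53.0% (10000 peaks), 22.8% (500 bp), 38.9% (5000 bp) and 24.6 to 30.9% (without 1 library).

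Of genes within 100 kb of a cerebellum-only peak 6.09% (292 of 4795) were called higher in cerebellum, and of those near a posterior-pituitary-only peak 5.48% (230 of 4199) in posterior pituitary, beside 2.78% and 2.5% of all genes. For cerebellum-only peaks this became 5.33% (every filtered peak), 6.96% (10000 peaks), 5.42% (stricter thresholds), 8.09% (50 kb) and 4.75 to 5.60% (without 1 library). For posterior-pituitary-only peaks it became 7.42% (stricter thresholds), 6.30% (absent from every list), 7.13% (50 kb) and 4.31 to 5.24% (without 1 library). Genes called higher in cerebellum numbered 699 with no filter on low counts, 231 with the 6 WT libraries, 194 with the 4 libraries, 924 with DESeq2 and 362 to 833 without 1 library, the highest without posterior pituitary replicate 1. Genes called higher in posterior pituitary numbered 694, 301, 150, 817 and 314 to 494. Of shared peaks, 345 and 18 were called without centring, 32 in cerebellum with stricter thresholds, and 93 to 174 and 63 to 168 without 1 library. The log2 difference of Fosb ranged from -3.24 (without cerebellum replicate 1, a reversal) to 1.44 (without posterior pituitary replicate 1). Of the named genes with a value, 35 lost their call with the 4 libraries alone and 20 with the 6 WT libraries. The cause of these moves was not tested.

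With every filtered peak, cerebellum-only and posterior-pituitary-only peaks were present in both WT anterior pituitary libraries at 39.4% and 84.8%, and in stabilized cerebellum at 95.9% and 35.8%, stabilized anterior pituitary at 59.0% and 84.6%, and stabilized posterior pituitary at 59.9% and 80.2%.

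With the replicate number as a block (replicate block), 438 and 408 genes and 91 and 88 shared peaks were called. Same-numbered libraries of the tissues hardly deviated together (Pearson r of 0.0085 over genes and 0.0077 over shared peaks, replicate 1 deviations), so the numbers are not taken as pairs.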

Other observations

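By chromosome, 46 cerebellum-only, 63 posterior-pituitary-only and 349 shared peaks lay on the X chromosome, and 1, 18 and 52 on the Y chromosome. No test was run on these counts.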
